A study of Mus musculus with 7 samples.

Results

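The 6 Dlx genes of the mouse lie in 3 convergent pairs, and the chromatin over each pair was read from ChIP-seq peak lists of olfactory stem and progenitor cells. The genes were taken by name: Dlx5 and Dlx6 on chromosome 6, Dlx1 and Dlx2 on chromosome 2, and Dlx3 and Dlx4 on chromosome 11, which are 6 of 21887 protein-coding genes and 3 of 10523 neighbouring protein-coding gene pairs. Each locus was the span of a pair plus 20 kb on each side, in GRCm38 coordinates. Dlx5/Dlx6, the pair known for olfactory development, was set against the other pairs. The cells were globose basal cells, enriched with magnetic beads through an antibody to c-Kit from the olfactory epithelium of adult wild-type mice whose epithelium had been stripped with methimazole between 7 and 10 days earlier. Each of the 2 H3K27me3 libraries and 2 H3K27ac libraries came from a pool of 3 mice. Every animal was lesioned, so no group shows the undamaged tissue, and the 3 input libraries gave no peak list used here.

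Dlx genes encode homeodomain transcription factors that are related to Drosophila Distal-less. In the mouse, Dlx5 and Dlx6 act in the olfactory placode, the jaw and the forebrain, Dlx1 and Dlx2 act in the migration and maturation of inhibitory neurons, including those of the olfactory bulb, and Dlx3 acts in placenta, skin, hair and teeth. The genes of a pair point towards each other, so that their promoters lie at the outer ends and the sequence between them holds shared enhancers. H3K27me3 is laid down by Polycomb Repressive Complex 2 and accompanies silenced genes, and H3K27ac accompanies active promoters and enhancers. Both occupy the same lysine of histone H3, so a given histone tail carries at most 1 of them.

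The 4 peak lists held between 64279 and 95749 peaks, and the median fold enrichment of a peak over its background lay between 3.21 and 3.61. Peaks were called in each library separately, the fold values are the authors' own, and fold is compared only within a library. The read depth is unknown, so a stretch without a peak had none at the authors' threshold. The labelled cell type was checked against its genes: all 10 listed genes of globose basal cells carried H3K27ac at a gene end, against 60.8% of all protein-coding genes. Kit, which encodes the receptor used for the selection, had H3K27ac peaks of 6.80-fold and 4.39-fold and H3K27me3 peaks of 5.11-fold and 3.41-fold in replicates 1 and 2. Among genes of other cell types, H3K27ac lay at 5 of 5 for immature neurons, 3 of 5 for mature neurons, 4 of 5 for sustentacular cells, 2 of 3 for Bowman glands, 3 of 6 for horizontal basal cells, 4 of 5 for stroma and endothelium, 3 of 5 for leukocytes, 2 of 5 for melanocytes and 1 of 5 for mast cells. Several of these counts lie near the share of all genes. Among leukocyte genes, Cd68, Csf1r and Cd79a had H3K27ac of 10.7-fold, 7.98-fold and 7.14-fold in replicate 1, and Ptprc had no peak at a gene end in any library. Among mast cell genes, Hdc had H3K27ac of 6.11-fold in replicate 1, and Cpa3 and Fcer1a had no peak at a gene end. The part of other cell types in the values below was not tested.

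H3K27me3 was present at all 6 Dlx genes and H3K27ac at 4 of them. A mark was assigned to a gene if each of its libraries had a peak within 1 kb of an annotated end of that gene. By that rule Dlx5, Dlx6, Dlx3 and Dlx4 carried both marks, Dlx1 and Dlx2 carried H3K27me3 alone, and no Dlx gene lacked both. Across all protein-coding genes 28.7% carried H3K27me3, 60.8% carried H3K27ac and 17.5% carried both. Among all neighbouring pairs, H3K27me3 was at both genes in 14.0%, H3K27ac at both genes in 55.4% and both marks at both genes in 5.76%. The Dlx family therefore lay above the background for H3K27me3, while its H3K27ac count of 4 of 6 was close to the background share. With 6 genes in 3 shared loci these counts are a description.

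**Figure D1:**
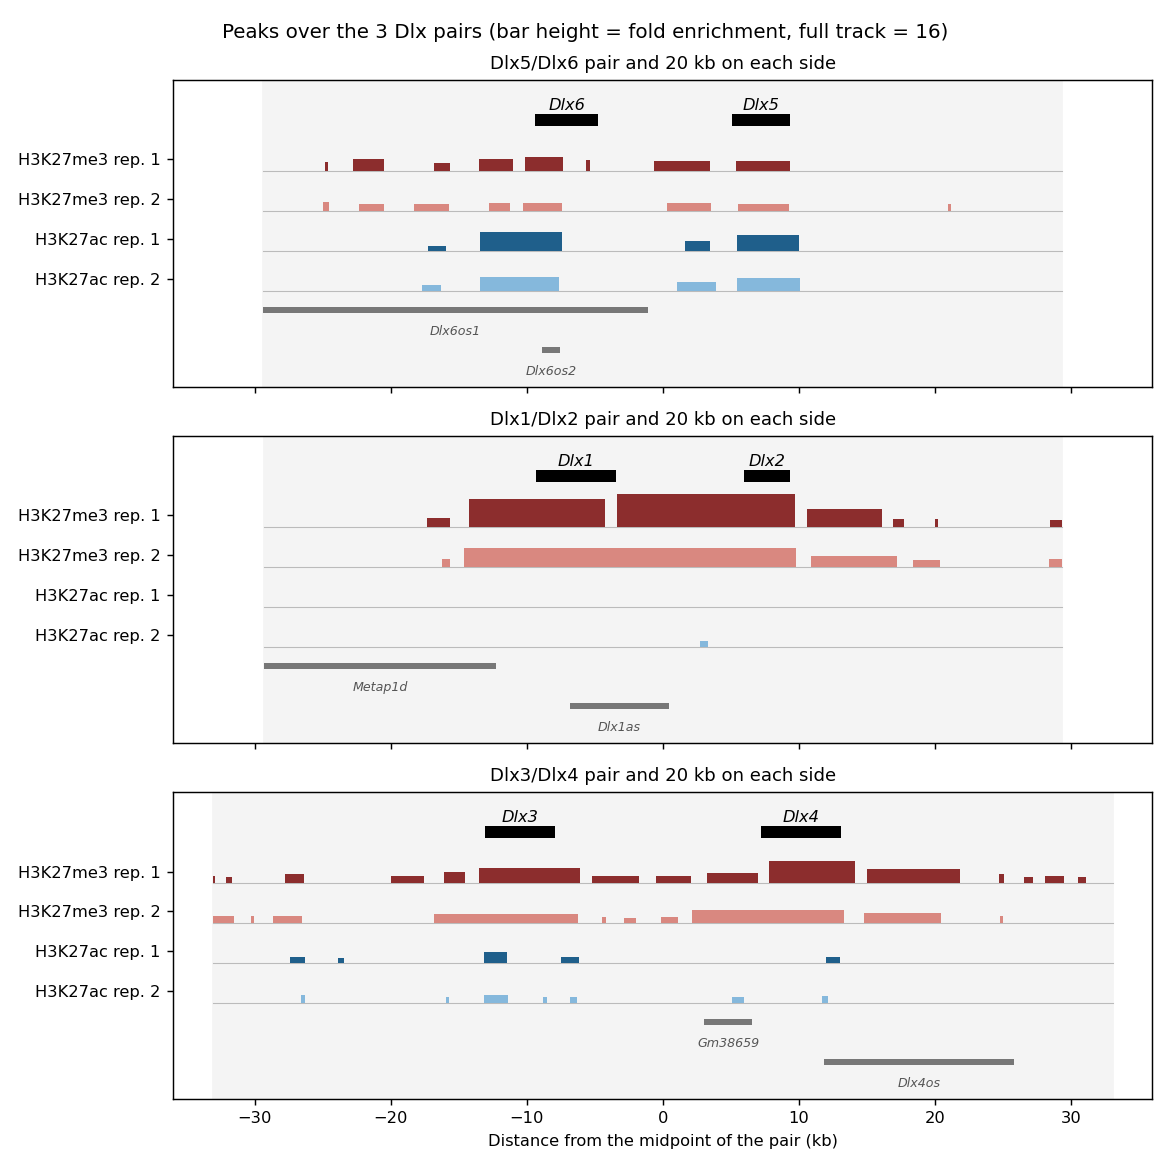
Peaks of each library over the Dlx5/Dlx6, Dlx1/Dlx2 and Dlx3/Dlx4 pairs, with the distance from the midpoint of the pair in kb on the horizontal axis, 1 track for each library, bar height showing fold enrichment (full track 16), black boxes for the Dlx genes and grey boxes for other annotated genes. Peaks of both marks overlap over Dlx5/Dlx6, H3K27me3 fills the Dlx1/Dlx2 pair with no H3K27ac peak at either gene, and Dlx3/Dlx4 shows wide H3K27me3 with short H3K27ac peaks.

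The Dlx5/Dlx6 pair spans chr6:6863334-6882068, with Dlx6 at chr6:6863334-6867970, Dlx5 at chr6:6877801-6882068 and 9.83 kb between them. Its locus of 58.73 kb held 8 H3K27me3 peaks in each replicate and 4 H3K27ac peaks in each replicate. H3K27me3 covered 29.36% and 27.85% of the locus in replicates 1 and 2, and H3K27ac covered 23.46% and 24.86%. By the called peaks the 2 marks thus took similar shares of this locus, and the replicates differed by less than 2 points for each mark. Depth is unknown, so shares of different marks are not on the same scale. Among all neighbouring pairs they ranked in the top 7.79% and 6.33% for H3K27me3 and the top 21.2% and 11.5% for H3K27ac. Coverage was lopsided: on the Dlx6 side, where the long noncoding gene Dlx6os1 runs, the flank was covered to 34.38% and 36.05% by H3K27me3 and to 26.85% and 26.95% by H3K27ac. On the Dlx5 side the flank was covered to 0.105% and 1.125% by H3K27me3 and to 3.225% and 3.505% by H3K27ac. Both marks therefore ended close to Dlx5 and reached far beyond Dlx6.

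At the start of Dlx5, which is required for the olfactory epithelium to connect with the brain in the mouse, the H3K27me3 peaks had fold enrichments of 5.02 and 3.54 in replicates 1 and 2, and the H3K27ac peaks 7.60 and 6.0. The gene body was covered to 93.2% and 87.3% by H3K27me3 and to 92.4% and 91.7% by H3K27ac. Nearly all of Dlx5 therefore lay in peaks of both marks. The marks differed at the outer edge. The H3K27ac peaks ran 645 and 701 bp past the annotated start, the H3K27me3 peak of replicate 1 ran 21 bp past it, and that of replicate 2 ended inside the gene. Genes with a peak in the same library were ranked by fold. Dlx5 lay in the top 28.9% and 57.7% for H3K27me3 and the top 58.9% and 59.5% for H3K27ac. Its H3K27ac peaks were thus slightly below the medians of those genes, 8.70 and 6.84. Its H3K27me3 peak was above the median of 3.87 in replicate 1 and below that of 3.72 in replicate 2.

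Dlx6, which acts together with Dlx5, had the strongest H3K27ac peaks of the family. Its start had H3K27me3 peaks of 6.90-fold and 4.06-fold and H3K27ac peaks of 8.95-fold and 6.81-fold in replicates 1 and 2. The window of the start was covered to 88.6% and 94.7% by H3K27me3 and to 100% and 100% by H3K27ac. The body was covered to 49.5% and 42.7% by H3K27me3 and to 42.7% and 37.0% by H3K27ac, and the inner end had an H3K27me3 peak of 239 bp in replicate 1 and no H3K27ac peak. Both marks thus sat on the promoter side of Dlx6. The H3K27ac peak there was 6024 and 5768 bp long and ran 4045 and 4052 bp past the start. The H3K27me3 peak over the start ran 771 and 893 bp past it. Further H3K27me3 peaks lay beyond on that side, the next of 2508 and 1510 bp. The outermost in the locus began at chr6:6847900 and chr6:6847759. The further H3K27ac peaks on that side of Dlx5 were weaker. The one between the genes had 4.60-fold and 4.45-fold enrichment, and the one inside Dlx6os1 had 2.67-fold and 2.91-fold, among the weaker peaks of each list.

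The noncoding genes around Dlx6 differed. Dlx6os2, at chr6:6863797-6865150 inside Dlx6, had the same peaks at its ends as the Dlx6 start. Dlx6os1, whose transcript in the mouse forebrain is known as a regulator of Dlx5 and Dlx6, spans chr6:6820543-6871627 and had a peak at an end in H3K27me3 replicate 1 only, of 5.11-fold. That peak lies between the Dlx genes. Beyond the locus, from 20 to 50 kb outside the pair, H3K27ac covered nothing in either library and H3K27me3 covered 0.403 and 2.074 kb. No other protein-coding gene lies within 50 kb of Dlx5/Dlx6.

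At Dlx5/Dlx6 the marks lay on the same bases. The stretches covered in all 4 libraries added up to 10.02 kb, which was 70.4% of the 14.23 kb covered by H3K27me3 in both replicates and 76.4% of the 13.11 kb covered by H3K27ac in both. They fell into 5 stretches. The longest, 3728 bp at chr6:6878229-6881956, lay in Dlx5. The next, 2487 bp at chr6:6862563-6865049, held the Dlx6 start, and 1842 bp at chr6:6874317-6876158 lay between the genes. Whether that stretch falls on the shared enhancers of the pair was not tested. The other stretches, 1510 and 452 bp, lay in Dlx6os1 upstream of Dlx6. A peak list does not show whether marks on the same bases came from the same cells, and these possibilities cannot be told apart here.

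**Figure D2:**
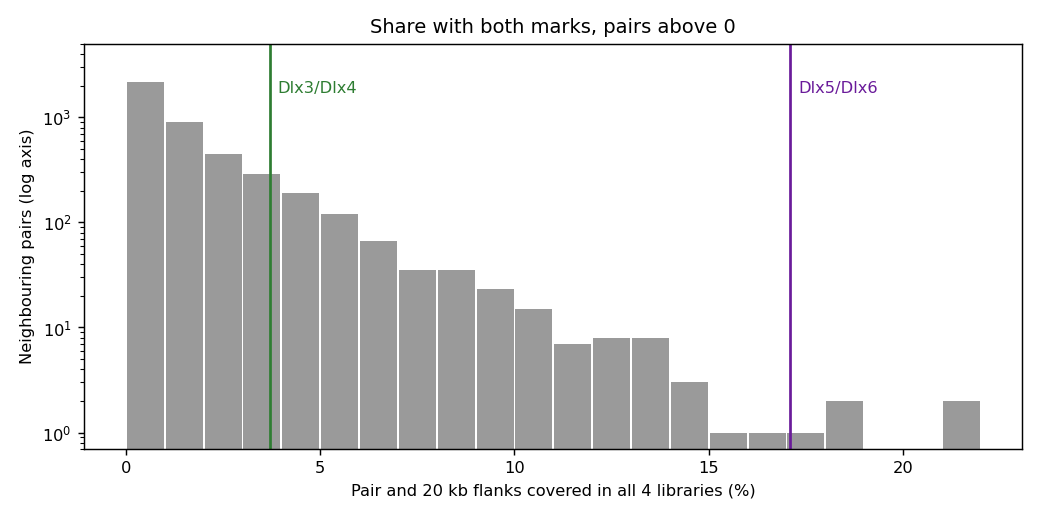
Share of each neighbouring protein-coding pair and its 20 kb flanks covered by peaks in all 4 libraries (horizontal axis, percent) against the number of pairs (vertical axis, log scale), for pairs above 0. Dlx5/Dlx6 stands at 17.1% near the right end, Dlx3/Dlx4 at 3.71%, and Dlx1/Dlx2 is at 0 and not drawn.

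By this shared coverage Dlx5/Dlx6 stood near the top of the genome. All 4 libraries covered 17.1% of the Dlx5/Dlx6 locus, and 4 of the 10523 neighbouring pairs had a higher share. Dlx3/Dlx4 had 3.71%, with 587 pairs higher, and Dlx1/Dlx2 had 0, as did 58.9% of all pairs. Coverage in kb in place of percent put 20 pairs above Dlx5/Dlx6. Its place by percent, the top 0.0475%, was 0.219% without H3K27me3 replicate 2, 0.152% without H3K27ac replicate 2 and 0.618% with a peak in either replicate. With a −log10 q of 5 or more, no base of the locus had both marks in all libraries. The 4 pairs higher by percent, named after their values were seen, fall into 2 neighbourhoods. Aqp5/Aqp6 and Aqp2/Aqp5, genes of water channels, had 21.5% and 21.4%, and Ankrd13d/Grk2 and Ssh3/Ankrd13d had 18.7% and 18.4%. Each mark alone was less extreme: Dlx5/Dlx6 lay in the top 7.79% and 6.33% of pairs for H3K27me3 and the top 21.2% and 11.5% for H3K27ac.

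The Dlx1/Dlx2 pair, at chr2:71528113-71546754, was a wide block of H3K27me3 with no H3K27ac at either gene. H3K27me3 covered 54.88% and 58.44% of its locus in replicates 1 and 2. H3K27ac had no peak in replicate 1 and covered 1.003% in replicate 2. That coverage was 1 peak of 588 bp between the genes at 2.75-fold, lower in fold than nearly all peaks of its list, with a −log10 q of 1.02 at the edge of the threshold. The stretch of 9.426 kb between Dlx1 and Dlx2 was covered to 99.32% and 100% by H3K27me3. Joined across gaps of up to 3 kb, the peaks made domains of 37.58 and 36.62 kb, among the top 0.576% and 0.777% of domains by length.

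Dlx1 and Dlx2, partners in the making of inhibitory neurons, had the strongest H3K27me3 peaks of the family. The start of Dlx1 had 13.2-fold and 9.21-fold enrichment in replicates 1 and 2, and the start of Dlx2 had 15.7-fold and 9.21-fold. In replicate 2 a peak of 24449 bp held both genes, and in replicate 1 they lay in peaks of 10013 bp (Dlx1) and 13075 bp (Dlx2, the stretch between the genes and the inner window of Dlx1). The 13075 bp peak ranked 40 of 95749 by fold in replicate 1, and the 24449 bp peak ranked 80 of 65172 in replicate 2. The H3K27me3 peaks over the starts ran 4927 and 5306 bp past the annotated start of Dlx1 and 366 and 501 bp past that of Dlx2. The block went on beyond Dlx2 in further peaks, the next of 5503 and 6324 bp. The joined domains ended at chr2:71557671 and chr2:71557803. Dlx1as, the antisense gene at chr2:71530638-71537891, lay inside the block with 15.7-fold and 9.21-fold H3K27me3 and no H3K27ac. Metap1d, which encodes a methionine aminopeptidase of mitochondria, is the nearest coding neighbour at chr2:71453281-71525194. Its end near Dlx1 was under the same H3K27me3 peaks, and at its far end, outside the locus, it had H3K27ac peaks of 6.10-fold and 4.19-fold.

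The promoter sequences of Dlx1 and Dlx2 are shown because both lie whole inside the strongest H3K27me3 peaks of the family, in both replicates, and outside every H3K27ac peak. They run from 250 bases before to 50 bases after the start, from RefSeq on GRCm38.p6, with every CG dinucleotide in capitals. Dlx1 is read on the plus strand at chr2:71529195-71529494 and Dlx2 on the minus strand at chr2:71546705-71547004. The Dlx1 start used in the promoter table lies inside the annotated gene, downstream of the outer end used for the windows.
Dlx1: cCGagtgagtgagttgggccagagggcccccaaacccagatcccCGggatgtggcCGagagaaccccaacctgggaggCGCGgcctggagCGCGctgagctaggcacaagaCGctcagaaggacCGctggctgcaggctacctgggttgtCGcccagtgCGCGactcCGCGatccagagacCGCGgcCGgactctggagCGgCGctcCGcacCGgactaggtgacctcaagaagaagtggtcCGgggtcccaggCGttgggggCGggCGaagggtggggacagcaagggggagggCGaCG
Dlx2: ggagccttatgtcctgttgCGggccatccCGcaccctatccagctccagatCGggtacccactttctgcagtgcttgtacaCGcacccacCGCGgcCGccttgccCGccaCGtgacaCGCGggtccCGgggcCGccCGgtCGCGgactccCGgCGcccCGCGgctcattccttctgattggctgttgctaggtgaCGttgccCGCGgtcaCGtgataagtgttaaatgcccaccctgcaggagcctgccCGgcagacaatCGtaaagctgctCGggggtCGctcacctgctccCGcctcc
The Dlx1 promoter held 27 CG dinucleotides at a GC content of 69.3%, and the Dlx2 promoter 29 at 66.3%, against a median of 7 over 32851 promoters of the same length. As many or more were found in 15.5% of promoters for Dlx1 and 12.9% for Dlx2. The homeodomain core motifs TAATTA and TAATTG, searched on both strands, were in neither sequence, and 5.29% and 8.0% of all promoters hold them. Promoters of the other 4 Dlx genes were not analysed here.

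The Dlx3/Dlx4 pair, at chr11:95120117-95146294, had wide H3K27me3 with short H3K27ac peaks. H3K27me3 covered 59.40% and 51.64% of its locus of 66.18 kb in replicates 1 and 2, in 15 and 10 peaks. H3K27ac covered 8.441% and 6.717%, in 5 and 7 peaks. The H3K27me3 share was thus close to that of Dlx1/Dlx2 but in more and weaker pieces: the highest fold was 10.4 and 6.19, at Dlx4, and the stretch of 15.15 kb between the genes was covered to 77.08% and 60.71%. The replicates differed more in H3K27ac here than over Dlx5/Dlx6. Of the bases covered in either H3K27ac library, the fraction covered in both was 0.859 over Dlx5/Dlx6 and 0.355 over Dlx3/Dlx4.

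Dlx3, a regulator of skin and tooth differentiation, had start peaks of 7.27-fold and 4.25-fold for H3K27me3 and 5.31-fold and 3.75-fold for H3K27ac. H3K27me3 covered all of the gene body in both replicates, and H3K27ac covered 31.9% and 38.8%. The H3K27ac peak at the start was 1672 and 1732 bp long and ran only 22 and 28 bp past the annotated start, so it lay almost wholly inside the gene. All 4 libraries overlapped over 1672 bp there, at chr11:95120095-95121766, the longest such stretch of this pair.

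Dlx4 had the weakest H3K27ac of the 4 Dlx genes that carried it. Its start had H3K27me3 peaks of 10.4-fold and 6.19-fold and H3K27ac peaks of 3.09-fold and 3.36-fold, which placed it near the bottom of the genes with an H3K27ac peak (top 96.2% and 91.0%). The H3K27ac peaks touched the start window over 915 bp in replicate 1 and 50 bp in replicate 2, and neither held the start base. The call of H3K27ac at Dlx4 was lost when at least 500 bp had to be covered, or with a −log10 q of at least 2. Dlx4os, the noncoding gene at chr11:95145053-95159047 that overlaps Dlx4, shared its peaks. Gm38659, a noncoding gene between Dlx3 and Dlx4, had H3K27me3 of 5.15-fold and 6.19-fold and H3K27ac of 2.89-fold in replicate 2 only.

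**Figure D3:**
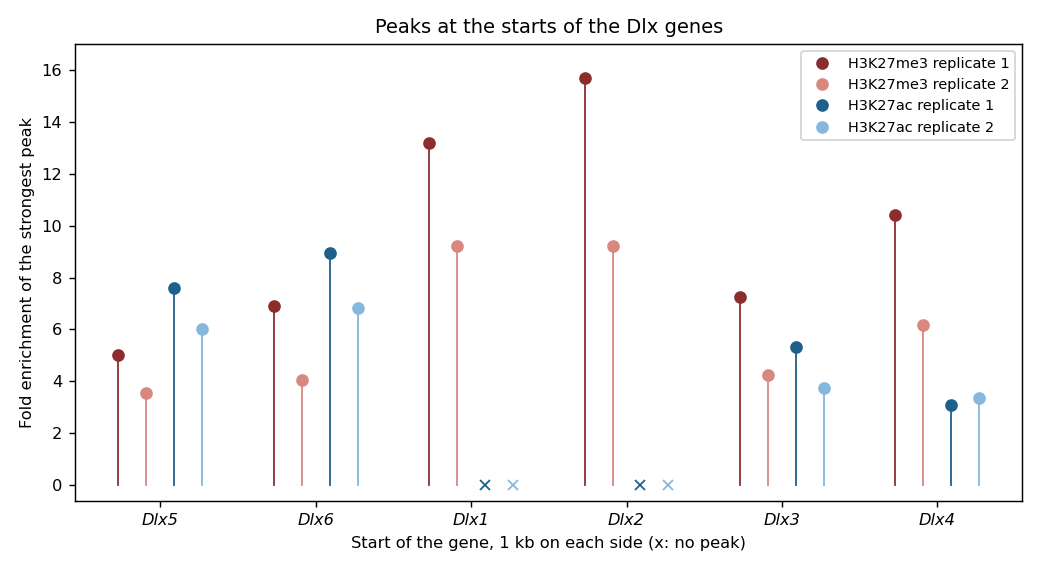
Fold enrichment of the strongest peak within 1 kb of the start of each Dlx gene (vertical axis), with 1 point for each library and a cross where there was no peak. Dlx5 and Dlx6 have the highest H3K27ac points, Dlx1 and Dlx2 the highest H3K27me3 points with no H3K27ac, and Dlx3 and Dlx4 have both marks with H3K27ac at 5.31 or less.

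Set side by side, Dlx5/Dlx6 had less H3K27me3 and more H3K27ac than either other pair in every library. H3K27me3 covered 28.61% ± 1.07 of the Dlx5/Dlx6 locus, 56.66% ± 2.52 of Dlx1/Dlx2 and 55.52% ± 5.49 of Dlx3/Dlx4 (mean ± SD, n = 2 libraries). H3K27ac covered 24.16% ± 0.99 of Dlx5/Dlx6, 0.501% ± 0.709 of Dlx1/Dlx2 and 7.58% ± 1.22 of Dlx3/Dlx4 (n = 2). For each mark the gap between Dlx5/Dlx6 and the others was several times these SDs, while the other pairs overlapped each other in H3K27me3. The SDs measure the spread between 2 libraries at the same locus, not the spread between loci. Against Dlx1/Dlx2 the difference was −25.51 and −30.59 points for H3K27me3 in replicates 1 and 2, and 23.46 and 23.86 points for H3K27ac. Against Dlx3/Dlx4 it was −30.04 and −23.78 points for H3K27me3, and 15.02 and 18.14 points for H3K27ac. These are differences between loci within a library. No test was run on them, since each mark has 2 libraries and every locus is measured in both.

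**Figure D4:**
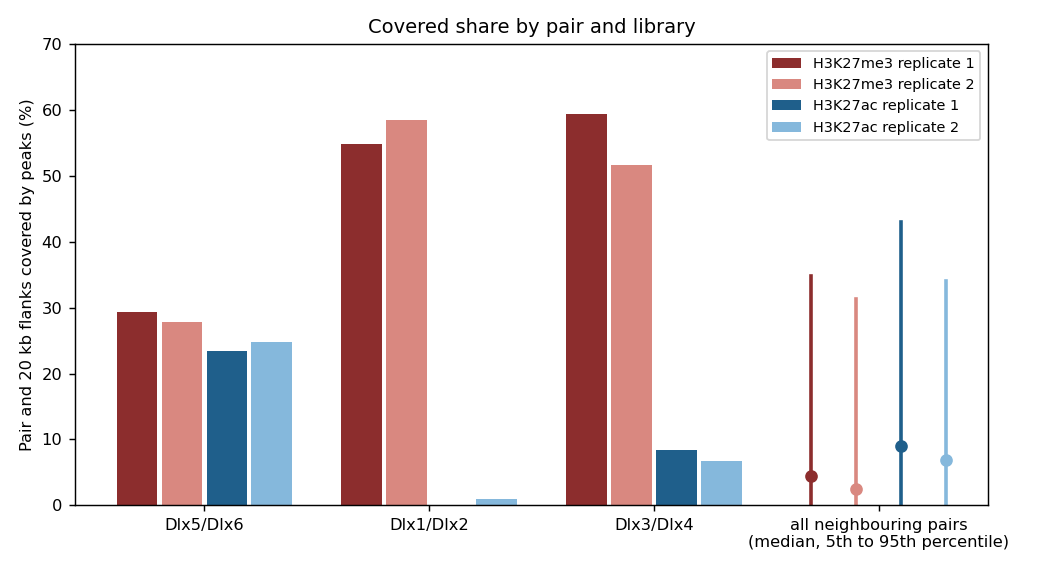
Percent of each Dlx pair and its 20 kb flanks covered by peaks (vertical axis), with 1 bar for each library, and at the right the median (point) and the range between the 5th and 95th percentile (line) over all neighbouring protein-coding pairs. Dlx5/Dlx6 has both marks at 23.46% to 29.36%, Dlx1/Dlx2 and Dlx3/Dlx4 have H3K27me3 above 50% and H3K27ac at 8.441% or less.

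For H3K27me3 the order held between the genes and in the flank of higher coordinates, and not in the other flank. Lower coordinates lie beyond Dlx6, Dlx1 and Dlx3, and higher ones beyond Dlx5, Dlx2 and Dlx4. The sides were matched by coordinate, not by the relation between the genes. Between the genes H3K27me3 covered 41.43% and 32.69% at Dlx5/Dlx6, 99.32% and 100% at Dlx1/Dlx2 and 77.08% and 60.71% at Dlx3/Dlx4. On the side of lower coordinates the flank was covered to 34.38% and 36.05% at Dlx5/Dlx6, 33.01% and 29.55% at Dlx1/Dlx2 and 31.68% and 38.56% at Dlx3/Dlx4, so the pairs overlapped there. On the side of higher coordinates it was 0.105% and 1.125% at Dlx5/Dlx6, 38.91% and 48.59% at Dlx1/Dlx2 and 54.37% and 31.17% at Dlx3/Dlx4. Over all neighbouring pairs H3K27me3 covered a median of 4.418% and 2.532% of the locus, and H3K27ac 9.024% and 6.944%. Dlx1/Dlx2 and Dlx3/Dlx4 were in the top 1.35% or higher for H3K27me3 in each library. Dlx3/Dlx4 was near the middle for H3K27ac (top 51.8% and 51.0%), and Dlx1/Dlx2 was low (top 87.5% and 82.2%).

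The width of the flank decided the comparison with Dlx3/Dlx4 for H3K27ac. With flanks of 50 kb the mean difference of Dlx5/Dlx6 minus Dlx3/Dlx4 turned to −4.38 points, from peaks that lie 20 to 50 kb outside the pairs: 0 and 0 kb at Dlx5/Dlx6 and 17.71 and 13.47 kb at Dlx3/Dlx4. Itga3, an integrin gene, is the other coding gene within 50 kb of Dlx3/Dlx4. The threshold decided the overlap of the marks. At a −log10 q of at least 5, H3K27me3 covered 13.34% and 0% of the Dlx5/Dlx6 locus, 48.76% and 41.69% of Dlx1/Dlx2 and 33.36% and 16.95% of Dlx3/Dlx4. No Dlx gene then carried both marks: Dlx1, Dlx2 and Dlx4 kept H3K27me3, and Dlx5 and Dlx6 kept H3K27ac. Such peaks are rarer in the H3K27me3 lists, at 5.89% and 2.34% of peaks, than in the H3K27ac lists, at 31.1% and 18.8%.

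The list of genes that act upstream of Dlx or beside it in the olfactory placode and forebrain held 15 genes. Of these, 11 carried both marks, as Dlx3, Dlx4, Dlx5 and Dlx6 did, against 17.5% of all protein-coding genes. Another 3 carried H3K27me3 alone and 1 carried H3K27ac alone. With a −log10 q of 5 or more, H3K27me3 was at 7 of the 15 and H3K27ac at 9. No share of all genes was computed at that threshold, here or for the lists below. Their median H3K27ac fold was 9.02 in replicate 1, against 5.26 over all protein-coding genes, and their median H3K27me3 fold was 7.55, against 0, with a gene without a peak counted as 0. Otx2, a factor of the anterior head, had H3K27me3 of 6.49-fold and 3.95-fold and H3K27ac of 11.5-fold and 8.69-fold in replicates 1 and 2. Gsx1, Gsx2 and Nkx2-1, which pattern the ventral forebrain where Dlx1 and Dlx2 act, carried H3K27me3 alone at 9.45-fold to 14.6-fold in replicate 1. Eya1, a phosphatase and transcriptional coactivator, had H3K27ac of 21.1-fold and 14.5-fold and an H3K27me3 peak of 3.74-fold in replicate 1 only.

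H3K27me3 without H3K27ac was found at 5 of 8 ligands and 8 of 15 downstream genes. Across all protein-coding genes 28.7% carried H3K27me3, 60.8% carried H3K27ac and 17.5% carried both. The 28.7% includes the 17.5% with both marks, and the rest of it carried H3K27me3 alone. All 8 ligands known to act on Dlx genes in development carried H3K27me3, and 3 of them, Bmp2, Bmp7 and Edn1, also carried H3K27ac. Bmp4, Fgf8, Fgf10 and Shh carried H3K27me3 alone, with Fgf10 showing H3K27ac of 3.16-fold in replicate 2 only. Of 15 genes downstream of Dlx, 14 carried H3K27me3, 6 carried H3K27ac as well and 8 had H3K27me3 alone. Several genes of the inhibitory neuron programme were in this last group: Gad1, which makes the transmitter GABA, had 10.8-fold and 7.04-fold H3K27me3 and no H3K27ac. Slc32a1, the vesicular transporter of GABA, had 12.5-fold and 6.41-fold, and Lhx6, a factor of migrating interneurons, had 12.7-fold and 6.54-fold. Lhx6 had an H3K27ac peak of 3.00-fold in replicate 1 only. Gad2, the second enzyme of GABA synthesis, differed from Gad1 and carried both marks, with H3K27ac of 7.09-fold and 4.72-fold, and so did Sp8, Zeb2 and Sp7. Bglap, the bone matrix gene osteocalcin, was the downstream gene with neither mark. H3K27ac was at 4 of 8 ligands without H3K27ac replicate 1, with a peak in either replicate or with windows of 2.5 kb, and at 7 of 15 downstream genes with windows of 2.5 kb, so these splits were near even. With a −log10 q of 5 or more, H3K27me3 was at 5 ligands and 9 downstream genes, and H3K27ac at 0 and 2.

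All 23 homeobox relatives of the Dlx genes carried H3K27me3, and 9 also carried H3K27ac, against 28.7% and 60.8% of all protein-coding genes. Msx1, Msx2, Barx1 and Barx2 carried both, and Msx3, Barhl1, Barhl2 and Emx1 had H3K27me3 alone, Emx1 with H3K27ac of 3.47-fold in replicate 2 only. The H3K27ac of relatives was mostly low: 3.01-fold and 2.96-fold at Msx2, and 4.89-fold and 4.98-fold at Msx1. Emx2, which acts in the olfactory epithelium and forebrain and stands in 2 of the lists, was higher, with H3K27ac of 13.5-fold and 9.70-fold and H3K27me3 of 7.20-fold and 3.90-fold. Of the 28.7% of all protein-coding genes with H3K27me3, those outside the 17.5% with both marks carried it alone. H3K27me3 alone, the state of Dlx1 and Dlx2, was found at 14 of 23. This order rested on the replicate rule, since H3K27ac was at 12 of the 23 without H3K27ac replicate 1 and at 13 with a peak in either replicate, and at 2 with a −log10 q of 5 or more. Many of these genes are developmental regulators, and the counts are set only beside the shares of all genes given above.

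**Figure D5:**
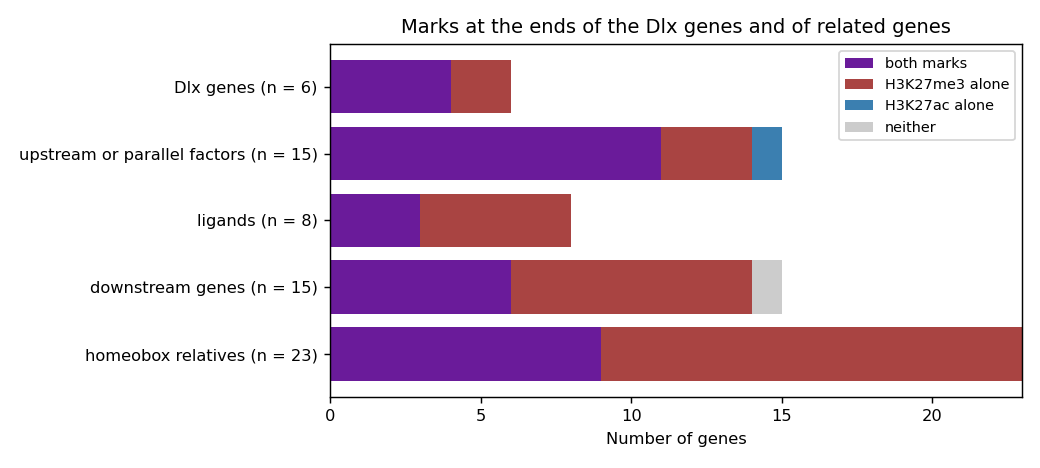
Number of genes (horizontal axis) with both marks, H3K27me3 alone, H3K27ac alone or neither at a gene end, for the Dlx genes and the 4 lists of related genes. Both marks are drawn for 11 of 15 upstream or parallel factors and H3K27me3 alone for 14 of 23 homeobox relatives, where H3K27ac is at 12 of 23 without H3K27ac replicate 1; with a −log10 q of 5 or more, H3K27me3 is at 7 of the 15 upstream or parallel factors.

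The genes whose coverage was most like each Dlx gene differed between the pairs. Likeness was the Euclidean distance, in percentage points, over the 4 libraries' covered shares of the gene plus 20 kb, among protein-coding genes of other loci. Dlx6, with 38.6% and 36.1% H3K27me3 and 30.9% and 32.7% H3K27ac, was nearest to Emx2 at 5.07 points, then Yif1a at 5.71 and Rhoc at 5.75. Dlx5 was nearest to Snrnp25 at 4.35, Cnih2 at 4.66 and Hspb1 at 4.74. Dlx1, with 66.0% and 67.0% H3K27me3 and 0% and 1.28% H3K27ac, had closer matches: Prdm12, a factor of pain-sensing neurons, at 1.85, Crhr1 at 2.14 and Tpsg1 at 2.35. Dlx2 was nearest to the ligand gene Wnt9b at 1.94, then the homeobox gene Gbx2 at 2.59 and Insrr at 3.32. Dlx3 was nearest to Nphs1 at 3.53, Otop2 at 4.23 and Lbx2 at 4.88, and Dlx4 to Otop3 at 5.34, Chpf at 5.36 and Lrrc4b at 5.54. Genes alike in coverage could differ in the marks at their ends. Snrnp25, Cnih2 and Yif1a carried H3K27ac alone by the gene end rule. Otop2, Lbx2, Otop3 and Lrrc4b carried H3K27me3 alone, and Insrr carried both marks. Genes of a pair share most of their window, so Dlx5 and Dlx6 are not independent points, nor are the genes of the other pairs.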

How the data were processed

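ChIP-seq peak lists of 2 H3K27me3 and 2 H3K27ac libraries were analysed. Groups and replicate numbers came from the sample titles. The submitters' processing notes name fastp, Bowtie, Picard and MACS2 (their versions are not given in the sources used here) and GRCm38, also called mm10. The authors called broad peaks in each library and deposited 9 columns without a header, among them each peak's fold enrichment over background, a linear ratio. The authors also deposited for each peak a −log10 p and a −log10 q from the peak calling, and a score that is the −log10 q multiplied and cut to a whole number. The smallest −log10 q was just above 1 in each list, a q of 0.1. No read totals were used here, so depth is unknown and no counting interval is given. The −log10 q of a peak grows with depth.

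From these lists covered bases, peaks at gene ends (1 bp minimum overlap) and bases shared between libraries were computed with Python 3.11.15 and numpy 2.4.6, with figures from matplotlib 3.10.9, and the overlap routines were tested on simulated intervals. Gene positions were those of RefSeq on GRCm38.p6, in a table without strand, so both gene ends were used. The outer ends were taken as the starts, from the known convergent order of the pairs, and the promoter table gives the strand of Dlx1 and Dlx2. Neighbouring pairs were adjacent protein-coding genes at most 20 kb apart, and overlapping pairs among them share sequence. No test was run, since pairs within a library are not replicates and each mark has 2 libraries. Replicates are separate pools of 3 mice by the labels, and H3K27me3 replicate 1 shares an input with H3K27ac replicate 2.

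The members, the 4 lists and the cell type genes were chosen with earlier results of these data known. Named genes are the members, genes that overlap a locus, and from each list up to 4 with both marks, 4 with neither and 4 with 1 mark in list order, plus the 3 nearest genes by coverage. The 4 pairs above Dlx5/Dlx6 and Itga3 were named after their values were seen, and cell type genes come from fixed marker lists. Some genes that the rule names are not reported here, though the counts of their lists include them. Alternatives were other q thresholds, replicate rules, windows and flanks.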

Additional observations from a re-analysis of the deposited data

How the results depend on the processing

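A count stayed if it was within 1.5 times the main count, and the place of Dlx5/Dlx6 only if it was unchanged. A difference or covered share stayed within the SD between replicates. A shared length stayed within the SD over the combinations of 1 H3K27me3 and 1 H3K27ac library. Among the recomputed counts of Dlx genes, differences between pairs, shared lengths and place of Dlx5/Dlx6, 53 stayed, 40 moved and 1 reversed. Among the counts of the gene lists and the covered shares of each library, 68 stayed and 48 moved. Direction: Dlx5/Dlx6 minus Dlx3/Dlx4 in H3K27ac (16.58 points as reported) was 27.81 with flanks of 10 kb, 28.36 without flanks and −4.38 with 50 kb, where peaks 20 to 50 kb outside Dlx3/Dlx4 enter. The other differences kept their sign. Dlx5/Dlx6 minus Dlx1/Dlx2 in H3K27me3 (−28.05) was −38.55 under a −log10 q minimum of 5, −45.0 with 10 kb, −16.52 with 50 kb and −46.3 without flanks. In H3K27ac (23.66) it was 21.89 and 19.44 under −log10 q minimums of 2 and 5, 25 with a peak in either replicate, 35.87 and 11.23 with 10 and 50 kb and 41.86 without flanks. Dlx5/Dlx6 minus Dlx3/Dlx4 in H3K27me3 (−26.91) was −20.48 and −18.48 under −log10 q minimums of 2 and 5, −35.71 with either replicate and −32.54 with 10 kb. Under a −log10 q minimum of 5 the Dlx genes with H3K27me3, H3K27ac and both marks numbered 3, 2 and 0. The length with both marks over Dlx5/Dlx6 (10.02 kb) was 9.567 kb under a −log10 q minimum of 2, 0 at 5 and 13.47 kb with either replicate, and 10.61 to 11.14 kb with 1 library left out. Over Dlx1/Dlx2 (0 kb) it was 0.588 kb with either replicate, and 0 to 0.588 kb with 1 library left out. Over Dlx3/Dlx4 (2.454 kb) it was 1.804 kb and 0 under −log10 q minimums of 2 and 5, 6.883 kb with either replicate and 4.712 kb with 50 kb, and 2.454 to 4.848 kb with 1 library left out, the larger values without H3K27ac replicate 1 (4.271 kb) or 2 (4.848 kb). The place of Dlx5/Dlx6 by shared coverage, an alternative set chosen after seeing the data (top 0.0475%), was 0.618% with either replicate, 0.0285% with 10 kb, 0.181% with 50 kb and 0.0475% to 0.219% with 1 library left out, 0.219% without H3K27me3 replicate 2 and 0.152% without H3K27ac replicate 2. Under a −log10 q minimum of 5 its value of 0.827% is a tie at 0. Beyond the window and threshold effects named, the cause of these moves was not tested. No paired analysis was possible because the results come from no fitted test. Differences between loci were taken within each library. The unknown depth limits every statement that a peak is missing.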
